A study of Mus musculus with 58 samples.

Results

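The genes described here encode the cytosolic ribosomal proteins. They were chosen by name alone, as the genes on probe sets of 1 symbol whose symbols begin with Rpl or Rps and a digit, or read Rplp0, Rplp1, Rplp2 or Rpsa, with pseudogenes and ribosomal S6 kinases left out. The rule gave 76 of the 18820 genes measured, on 387 of the 21218 probe sets with 1 symbol. Of the 76 genes, 42 are canonical proteins of the large subunit, 25 are canonical proteins of the small subunit, and 9 are paralogues or genes with a similar name (Rpl3l, Rpl10l, Rpl39l, Rps27l, Rps4l, Rpl7l1, Rpl32l, Rps19bp1 and Rps23rg1). Fau, a ribosomal protein gene whose symbol falls outside the rule, was measured as well. Other canonical genes are outside the counts below.

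The study asked whether whole body vibration training (WBV) changes muscle in mice that waste because of a C26 tumour, a colon adenocarcinoma line grown under the skin of the flank. Male CD2F1 mice, a cross of BALB/c and DBA/2, of 6 to 8 weeks and about 20 g at the start, received tumour cells or a sham injection of buffer. No genetic change is given for any group. The 4 groups were untreated controls (C), trained controls (C + WBV), mice with a tumour (T) and trained mice with a tumour (T + WBV). Trained mice stood on a vibrating platform for 15 min a day at 45 Hz and 1.0 g, and all mice were killed at day 19. The fast extensor digitorum longus (EDL) and the slow soleus (SOL) of the same 23 mice were measured, with 6 mice in each group but T + WBV, which had 5. Heart (HRT) was measured in 3 mice of each group, drawn from the same animals. Each array is therefore a separate mouse within a tissue, and the 58 arrays hold log2 RMA levels, whose medians lay between 4.52 and 4.60. The number of arrays limits the precision.

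The tissues carried their own markers. The mean log2 level of 4 fast fibre markers was 12.7 to 12.8 in EDL of C mice, 8.33 to 9.08 in SOL and 3.59 to 3.97 in HRT. Slow fibre markers read 12.2 in every SOL array of C mice, against 6.88 to 8.63 in EDL, and 4 heart markers read 11.4 to 11.8 in HRT against 5.00 or less in EDL and SOL of C mice. Body mass at day 19 was given as a percentage of the mass at the start. It was 100.9% in T + WBV replicate 2 and at most 91.0% in the other tumour bearing mice, so results that turn on that mouse are given with and without it. The SOL arrays of C replicate 2 and C + WBV replicate 2 stood low in the mean of the canonical genes, as given with that mean below.

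Every ribosome contains 1 copy of most of these proteins, which bind ribosomal RNA in a small and a large subunit. The small subunit reads the mRNA and the large subunit joins the amino acids. Their mRNAs begin with a run of pyrimidines at the 5′ end, the terminal oligopyrimidine (TOP) motif, through which Larp1 and the mTORC1 kinase control how strongly they are translated. The arrays measure the amount of mRNA and not its translation. Skeletal muscle is known for a paralogue of its own, Rpl3l, which takes the place of Rpl3 in ribosomes of mature striated muscle fibres.

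The bases around the start site are shown for some of the genes that carry the results below, since the TOP motif is known from these mRNAs. Each window holds 30 bases of RefSeq sequence on GRCm38.p6, read 5′ to 3′ on the strand of the gene, with 15 bases before the start and 15 from the start on. Capitals mark an unbroken run of at least 5 pyrimidines (C or T) that covers the start base, as far as it lies in the window. Rpl5, Rpl10, Rpl11, Rpl22, Rps4x and Rps19, which rose as well, are not shown and have no such run at any listed start. Rps27, whose mRNA rose in both muscles, lies at chr3:90213634-90213663 on the minus strand.
Rps27: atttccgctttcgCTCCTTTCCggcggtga
Rps9 is at chr7:3704026-3704055 on the plus strand.
Rps9: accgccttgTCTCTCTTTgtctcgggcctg
Rps6, the main substrate of the S6 kinases, is at chr4:86857353-86857382 on the minus strand.
Rps6: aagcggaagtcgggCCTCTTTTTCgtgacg
Rpl14 is at chr9:120571502-120571531 on the plus strand.
Rpl14: gggcgggCCCTCTCTCTTCTCgctgagcgc
Of the 3 starts listed for Rpl35a, the one at chr16:33056467-33056496 on the plus strand has such a run.
Rpl35a: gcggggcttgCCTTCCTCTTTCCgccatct
Rps28 at chr17:33824548-33824577 on the minus strand does not have a run of that length at its listed start.
Rps28: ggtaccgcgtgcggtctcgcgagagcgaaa
Rpl3l has 2 listed starts on the plus strand, at chr17:24727811-24727840 and chr17:24732670-24732699, and neither has one.
Rpl3l, first start: gagtgttctagctctgtcatttgacctctg
Rpl3l, second start: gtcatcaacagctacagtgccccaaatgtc

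Of the 76 genes, 62 had an entry in the table of start sites, and Rpl3 and Rps20 are among the 14 others. At least 1 listed start had such a run in 20 of 54 canonical genes (37.0%) and in 2 of 8 paralogues (25.0%), against 3191 of all 27025 genes in the table (11.8%). The run was searched on the strand of the gene, where its letters are C or T in any order. Among canonical genes that rose with the tumour it was present in 10 of 30 (33.3%) in EDL and 12 of 32 (37.5%) in SOL, against 10 of 24 (41.7%) and 8 of 22 (36.4%) of those not called. Thus the genes that rose and those that were not called had the run at similar shares. A match is a description of the letters at the annotated start, which can lie some bases away from the start used in muscle.

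In EDL the tumour went with more ribosomal protein mRNA. Comparing T with C at an adjusted p under 0.01 (limma, Benjamini-Hochberg over all 18820 genes), 36 of the 76 genes rose (47.4%) and 1 fell, whereas 10.7% of all genes rose and 11.6% fell. Among all genes above the median level 19.7% rose. The large subunit contributed 20 of its 42 genes and the small subunit 16 of its 25, and none of the canonical genes fell. The median difference over the 76 genes was 0.21 on the log2 scale, against -0.03 over all genes, and 69 of the 76 had a difference above 0. These are small changes. In whole muscle, a change in the number of cells of a type cannot be told apart from a change in the RNA of each cell. The largest rise was 0.73, that of Rpl3. A probe set annotated to both Rpl32 and Rpl32l, which is outside the count, rose by 0.26 ± 0.0550 (SE, adjusted p = 0.000668, limma).

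SOL of the same mice gave a like count. Here 36 genes rose (47.4%) and 1 fell, against 5.06% and 8.66% of all genes, and 9.13% of the genes above the median level rose. The median difference was 0.33, against -0.01 over all genes, and 73 of 76 were above 0. Of the 36 genes that rose in each muscle, 27 were shared, which is 75.0% of either list. Called in EDL but not in SOL were Rpl4, Rpl13a, Rpl17, Rpl23, Rpl28, Rps7, Rps14, Rps21 and Rps23. Called in SOL but not in EDL were Rpl9, Rpl14, Rpl35, Rpl35a, Rpl39, Rps3a1, Rps12, Rps19 and Rps26. Whether the 2 muscles differ in these genes is a separate test, given further below. The count in SOL depended on single arrays of the controls: it was 23 without C replicate 2, 24 without C replicate 3 and 45 without C + WBV replicate 2.

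In HRT none of the 76 genes passed the threshold (limma), where 5.74% of all genes passed, 2.7% higher and 3.04% lower. At an unadjusted p under 0.05 there were 22 of the 76, against 4979 of all 18820 genes. The intensity-based moderated test also called 0. The median difference was 0.11 and 65 of 76 were above 0. The groups of 3 arrays did not overlap for 40 genes that were higher in T (52.6%). Of all genes this held for 15.7%, and of those above the median level for 22%. For 3 genes T was lower without overlap, Rpl14, Rpl3l and Rps27l, against 16.3% of all genes. The trained groups, given further below, did not repeat the excess of higher genes without overlap. Most of their differences were above 0 as well. Without T + WBV replicate 2, which enters the estimate of the spread, 7 genes passed the threshold, and 1 passed without T + WBV replicate 3.

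**Figure D1:**
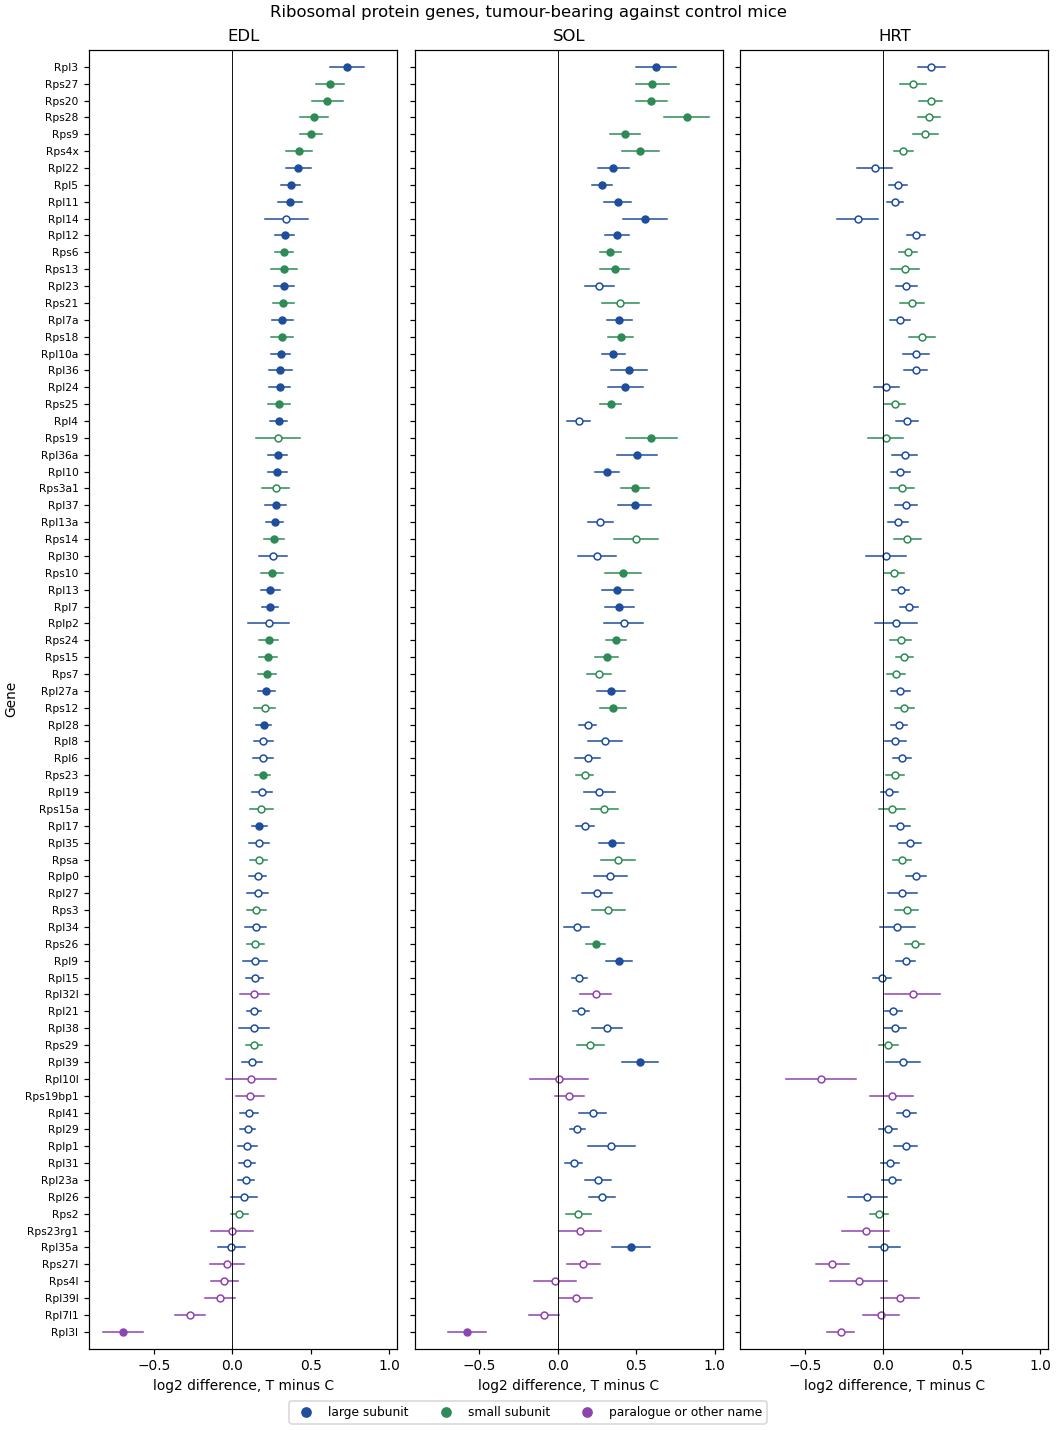
Difference between T and C on the log2 scale (horizontal) for each of the 76 genes (vertical, in the order of EDL) in EDL, SOL and HRT. Points are limma estimates with bars of 1 SE, filled where the adjusted p is under 0.01, and colours mark large subunit, small subunit and paralogues. In EDL and SOL 36 genes are filled to the right of 0 and only Rpl3l to the left, and in HRT no point is filled.

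Rpl3, a core protein of the large subunit close to the site where peptide bonds form, showed the largest rise in EDL. Its log2 level in C mice was at the lowest 7.61, at the median 7.87 and at the highest 8.00, and in T mice 8.35, 8.52 and 8.99. The groups did not overlap. The difference was 0.73 ± 0.108 (SE, adjusted p = 1.74e-05, limma), or 1.66-fold. In SOL the levels ran from 8.20 over 8.33 to 8.48 in C mice and from 8.62 over 9.00 to 9.19 in T mice. This gave 0.63 ± 0.128 (adjusted p = 0.000876, limma), or 1.54-fold, again without overlap. In HRT the C mice read 9.23, 9.25 and 9.17 and the T mice 9.49, 9.60 and 9.47. All 3 T arrays were above all C arrays, yet the difference of 0.30 ± 0.0863 had an adjusted p of 0.0313 (limma). The 6 probe sets of Rpl3 gave differences of 0.28 to 0.34 there, and sets of one symbol are not separate measurements.

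Rpl3l, the paralogue restricted to striated muscle, was the single gene of the 76 that fell. In EDL its level was 10.44, 10.49 and 10.54 (lowest, median, highest) in C mice and 9.13, 9.85 and 10.30 in T mice. The controls lay close together, while the T mice spread widely and all lay below them. It fell by 0.69 (SE 0.128, adjusted p = 0.000151, limma), to 0.618 of the control level. In SOL it was 10.05, 10.19 and 10.25 in C mice and 9.08, 9.58 and 9.96 in T mice, and it fell by 0.58 (SE 0.120, adjusted p = 0.000944, limma). In HRT the C mice read 9.63, 9.68 and 9.66 and the T mice 9.35, 9.29 and 9.50, a difference of -0.27 ± 0.0864 that did not pass (adjusted p = 0.0503, limma). So Rpl3 and Rpl3l moved in opposite directions in both muscles, and had differences of opposite sign in HRT. Levels of different probe sets cannot be set against each other, so the ratio of the 2 proteins' mRNAs is not given.

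**Figure D2:**
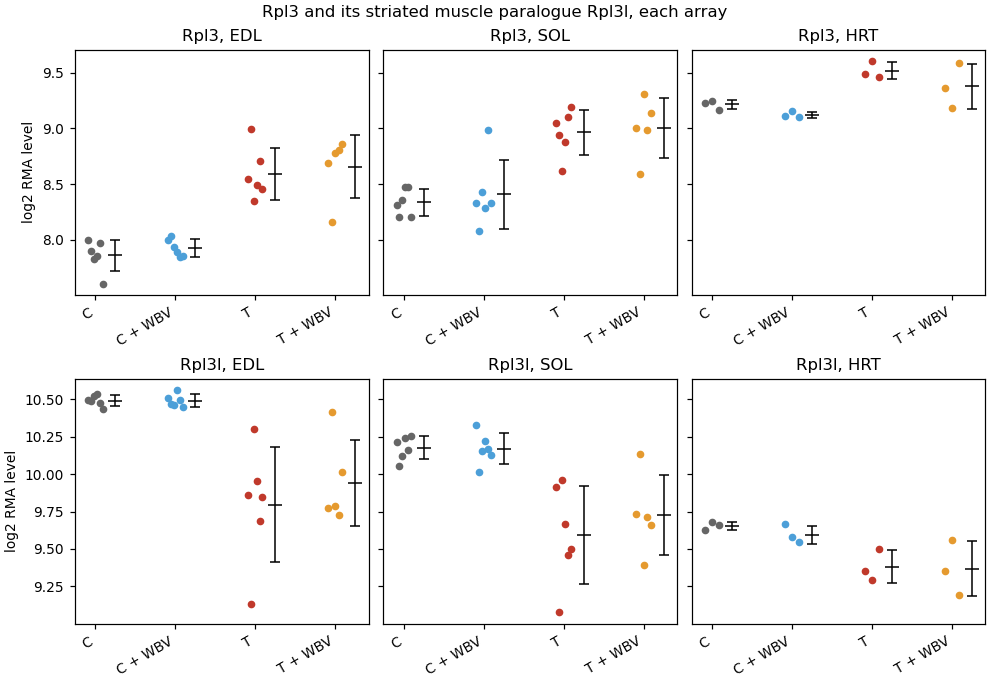
Log2 RMA level (vertical) of Rpl3 (upper row) and Rpl3l (lower row) in each array, by tissue and group (horizontal), with the mean and 1 SD beside the points. In EDL the T arrays of Rpl3 start at 8.35 and the C arrays end at 8.00, and the T arrays of Rpl3l end at 10.30 and the C arrays start at 10.44.

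Several small subunit genes came next. Rps28, at the mRNA exit side of the small subunit, had the largest rise of the set in SOL. Its levels in C mice were 8.49, 9.04 and 9.16 (lowest, median, highest) and in T mice 9.34, 9.80 and 10.20, which do not overlap. The difference was 0.82 ± 0.142 (adjusted p = 0.000183, limma), or 1.76-fold. In EDL it rose by 0.52 ± 0.0896 (adjusted p = 7.49e-05, limma), from 9.01, 9.04 and 9.16 to 9.33, 9.53 and 9.98. In HRT the C mice read 8.94, 8.94 and 8.92 and the T mice 9.20, 9.25 and 9.23, with an adjusted p of 0.0126, the smallest of the 76 genes in that tissue.

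Rps27, a zinc finger protein of the small subunit, had EDL levels of 9.92, 10.02 and 10.10 in C mice and 10.34, 10.69 and 10.97 in T mice. It rose by 0.62 ± 0.0899 (adjusted p = 1.39e-05, limma). In SOL its levels were 9.54, 9.94 and 10.03 in C mice and 10.20, 10.44 and 10.78 in T mice, a rise of 0.60 ± 0.104 (adjusted p = 0.000187, limma). The groups did not overlap in either muscle.

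Rps20 rose by 0.61 in EDL (adjusted p = 5.06e-05, limma), from a median of 9.42 to 10.06, and by 0.59 ± 0.0993 in SOL, from 9.35 to 9.87. Rps9, which had the smallest p of the set in EDL (adjusted p = 1.12e-05, limma), had levels of 9.39, 9.49 and 9.65 there in C mice and 9.86, 9.98 and 10.20 in T mice. Its rise was 0.50 ± 0.0702 in EDL and 0.43 ± 0.0957 in SOL. Rps4x, encoded on the X chromosome, rose by 0.42 ± 0.0817 in EDL and 0.53 ± 0.118 in SOL. All 3 genes passed in both muscles. None of them passed in HRT, where the differences were 0.30, 0.27 and 0.13. In SOL, Rps19 and Rpl14 also rose, by 0.60 ± 0.163 and 0.55 ± 0.140 (adjusted p = 0.00931 and 0.00521, limma), with differences of 0.29 and 0.34 in EDL that did not pass (adjusted p = 0.125 and 0.0556, limma). The call of Rps19 in SOL held in 7 of 23 fits that left out 1 array and was lost in 4 of 9 alternatives, and that of Rpl14 held in 17 of 23 such fits.

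Rpl5 and Rpl11 form a particle with the 5S ribosomal RNA and can bind the p53 regulator Mdm2. Both rose by 0.37 in EDL (SE 0.0618 and 0.0765), and by 0.28 and 0.38 in SOL (SE 0.0621 and 0.0882). Rps6 rose by 0.33 ± 0.0564 in EDL and by 0.34 ± 0.0681 in SOL. Rpsa, also known as the laminin receptor precursor, had differences of 0.17 and 0.38, with adjusted p values of 0.0209 and 0.0103 (limma), and was not called. The proteins of the stalk that recruits elongation factors, Rplp0, Rplp1 and Rplp2, did not pass in either muscle. Their differences were 0.16, 0.10 and 0.23 in EDL and 0.34, 0.34 and 0.42 in SOL.

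The paralogues other than Rpl3l did not pass the threshold in any tissue. Rpl7l1 had -0.27 ± 0.0945 in EDL (adjusted p = 0.0321, limma) and Rps27l had -0.33 ± 0.105 in HRT (adjusted p = 0.0552, limma). Rpl10l and Rpl39l, best known from testis, had differences of 0.12 and -0.08 in EDL and of 0.01 and 0.11 in SOL. Of their canonical counterparts, Rpl10 rose by 0.29 in EDL and by 0.31 in SOL. Rpl39 rose by 0.52 ± 0.112 in SOL (adjusted p = 0.00129, limma) and had 0.13 ± 0.0641 in EDL, which did not pass (adjusted p = 0.145, limma). The difference between a paralogue and its counterpart was not tested. For the pair Rpl22 and Rpl22l1, Rpl22 rose by 0.42 ± 0.0809 in EDL (6.67, 6.90 and 7.00 in C mice against 7.08, 7.22 and 7.49 in T mice) and by 0.35 ± 0.0972 in SOL (adjusted p = 0.00956, limma). The call of Rpl22 in SOL held in 7 of 23 fits that left out 1 array and was lost in 4 of 9 alternatives, the replicate block among them. Rpl22l1 shares its probe sets with Gm15421. One of them had 0.62 ± 0.147 in EDL (adjusted p = 0.00189, limma) and 0.67 ± 0.190 in SOL (adjusted p = 0.0115, limma).

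The average of the 67 canonical genes was expressed for each array as the difference from the mean of C mice. In EDL the T mice had 0.252 ± 0.107 (SD, n = 6) and the T + WBV mice 0.225 ± 0.0714 (SD, n = 5). The lowest tumour bearing array read 0.108 and the highest control array 0.0469, so the groups with and without tumour did not overlap. In SOL the T mice had 0.347 ± 0.126 (SD, n = 6) and the T + WBV mice 0.265 ± 0.0672 (SD, n = 5). There the controls spread more widely, since C replicate 2 read -0.190 and C + WBV replicate 2 read -0.300, while the other control arrays lay between -0.0622 and 0.0688. In HRT it was 0.110 ± 0.0154 in T and 0.0706 ± 0.0700 in T + WBV (SD, n = 3 each), and T + WBV replicate 2 read -0.00961. RMA sets all arrays to one distribution, so these are shifts relative to the other transcripts and say nothing of RNA per fibre.

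**Figure D3:**
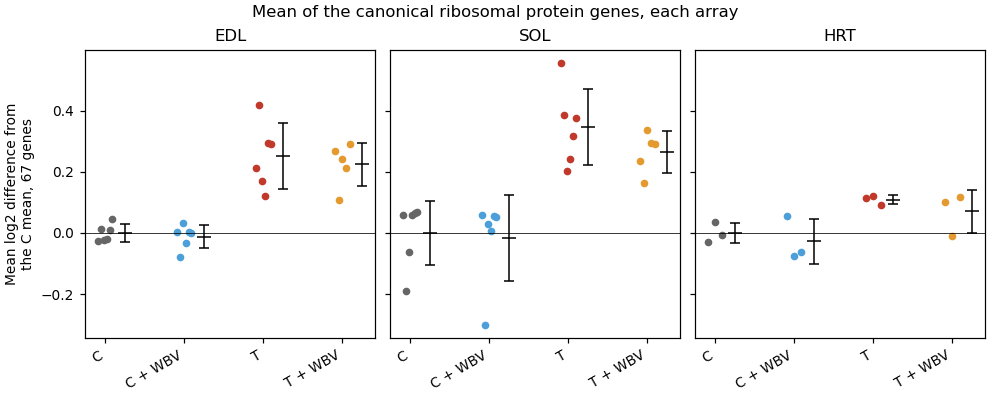
Mean log2 difference of the 67 canonical genes from the mean of C mice (vertical) in each array, by tissue and group (horizontal), with the mean and 1 SD beside the points. In EDL the tumour bearing arrays read 0.108 to 0.420 and lie above every control array, and in SOL C + WBV replicate 2 at -0.300 lies below all others.

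No gene of the 76 passed the test for training. Comparing T + WBV with T, 0 genes passed in EDL, SOL or HRT (limma), where 0% of all genes passed. At an unadjusted p under 0.05 there were 0, 0 and 2 genes, against 902, 939 and 1407 of all 18820 genes. The smallest p was that of Rpsa in HRT (-0.14 ± 0.0598, adjusted p = 0.635, limma). The intensity-based moderated test also called 0 in each tissue. For C + WBV against C, 0 genes passed in each tissue (0% of all genes), and 0, 0 and 1 had an unadjusted p under 0.05. The interaction of tumour and training gave 0 genes as well (0% of all genes). There 0, 0 and 1 had an unadjusted p under 0.05, against 596, 838 and 1105 of all genes. A difference that misses the threshold is not shown to be absent. For Rpl3, T + WBV minus T was 0.07 ± 0.114 in EDL and 0.04 ± 0.134 in SOL, and for Rpl3l it was 0.15 ± 0.134 and 0.13 ± 0.125. In SOL, 69 of the 76 differences between T + WBV and T were at or below 0, with a median of -0.09, and over all genes the median was 0.01. Genes of the same arrays are not independent, so this count is not a test of training. The mean of the canonical genes was 0.557 in SOL T replicate 1 and 0.202 to 0.385 in the other T arrays of SOL. In HRT the arrays of T + WBV lay below those of T without overlap for 7 genes (Rpl5, Rpl7l1, Rpl23a, Rpl24, Rps25, Rps28 and Rpsa), or 9.21%, against 5.61% of all genes.

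The tumour comparison in trained mice takes its means from arrays that the comparison in untrained mice does not use. Both share 1 estimate of the spread from all 4 groups of a tissue, so their calls are not independent. With only the groups compared, the counts in EDL and SOL were lower, as given further below. In EDL, 27 genes rose in T + WBV against C + WBV and Rpl3l fell, against 5.27% and 6.6% of all genes. Of these 27, 26 had also risen in T against C, which is 96.3% of this list and 72.2% of the 36. The gene that rose here alone was Rpl30. In SOL only Rpl3, Rps20, Rps27 and Rps28 passed, where 3.61% of all genes passed, 1.94% higher and 1.66% lower, and 3.53% of those above the median level were higher. All 4 had risen in untrained mice. In HRT 0 genes passed (limma), where 1.01% of all genes rose and 0.478% fell, and the intensity-based moderated test also called 0. At an unadjusted p under 0.05 there were 21, against 3841 of all 18820 genes. The groups did not overlap in HRT for 7 higher genes (9.21%) and 2 lower, against 9.99% and 11.7% of all genes. Among genes above the median level 13.3% were higher without overlap. The median difference in HRT was 0.08, against -0.01 over all genes, and 63 of 76 were above 0. In SOL the median was 0.26 and 72 of 76 differences were above 0. At an adjusted p under 0.05, 27 genes passed in SOL, and the share of all genes at that threshold is not given. Without T + WBV replicate 2 the count in SOL was 11, and it was 0 without T + WBV replicate 1, 3, 4 or 5 or without C + WBV replicate 2.

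Rpl3 read 8.69, 8.16, 8.78, 8.81 and 8.86 in EDL of the 5 T + WBV mice and 7.85 to 8.03 in C + WBV mice. The second mouse, which had kept its body mass, stood apart from the other 4 but still above every C + WBV array. The difference of 0.73 ± 0.114 equalled that in untrained mice. In SOL Rpl3 read 9.00, 8.59, 9.31, 8.98 and 9.14 in T + WBV, and 8.08 to 8.99 in C + WBV, where replicate 5 at 8.99 overlapped. Rpl3l read 9.77, 10.42, 9.78, 9.72 and 10.01 in EDL of T + WBV mice, all below the 10.45 to 10.56 of C + WBV mice, and it fell by 0.55 (SE 0.134, adjusted p = 0.00468, limma). This call of Rpl3l was lost with the replicate block and without T + WBV replicate 1, 3 or 4 or C + WBV replicate 4. In SOL it read 9.73, 10.14, 9.39, 9.71 and 9.66 against 10.01 to 10.33, so the groups overlapped in the second mouse, and -0.44 ± 0.125 did not pass (adjusted p = 0.0256, limma).

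Across the 76 genes, the tumour differences of untrained and trained mice had a Pearson correlation of 0.878 in EDL, 0.953 in SOL and 0.555 in HRT. Without Rpl3 and Rpl3l these were 0.809, 0.935 and 0.490. They are descriptions across genes, which are not independent, and the points of a tissue share their arrays. The comparison of T + WBV with C shares its arrays with both other comparisons. In EDL 20 genes rose and 1 fell (5.37% and 5.69% of all genes, and 9.79% higher among those above the median level). In SOL 6 rose (4.67% of all genes passed, 2.01% higher and 2.66% lower). In HRT 0 passed (0.999% and 0.473% of all genes, limma), and the intensity-based moderated test also called 0. At an unadjusted p under 0.05 there were 13 in HRT, against 3968 of all 18820 genes.

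**Figure D4:**
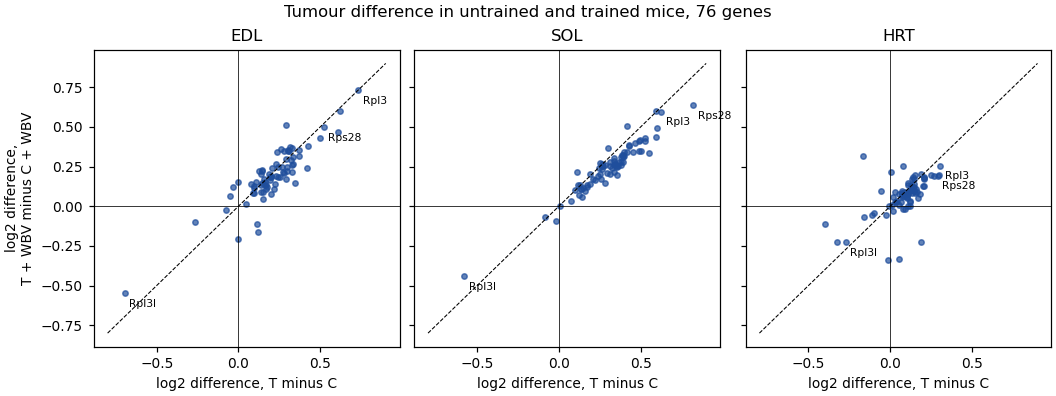
Log2 difference of T + WBV from C + WBV (vertical) against that of T from C (horizontal) for the 76 genes in EDL, SOL and HRT, with the line of equality dashed. Rpl3 lies at 0.73 on both axes in EDL, Rpl3l is the lowest point in EDL and SOL, and the points of HRT lie nearer to 0.

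Whether the tumour difference itself differed between tissues was tested in 1 model of all 58 arrays, with the mouse as a random block. No gene of the 76 passed for SOL against EDL (limma), where 0.744% of all genes were higher in SOL and 1.28% lower. At an unadjusted p under 0.05 there were 9, against 3650 of all 18820 genes. The smallest adjusted p was that of Rpl35a, 0.0143, with a difference between the tissues of 0.47 ± 0.123. Rpl35a read 6.00, 6.07 and 6.23 in C mice and 5.90, 6.11 and 6.32 in T mice in EDL, which overlap throughout. In SOL it read 5.84, 6.01 and 6.15 in C mice and 6.23, 6.44 and 6.99 in T mice, which do not. On the 11 probe sets shared by Rpl35a and Ino80, the differences between T and C were 0.09 to 0.14 in EDL and 0.37 to 0.47 in SOL. Rpl39, which lines the exit tunnel for the new peptide, came next (difference 0.40 ± 0.119, adjusted p = 0.0373, limma).

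For HRT against EDL, 0 of the 76 genes passed as well (limma), where 1.79% of all genes were higher and 1.71% lower. At an unadjusted p under 0.05 there were 9, against 3951 of all 18820 genes. Rpl22 had the smallest adjusted p, 0.0245. Its level in HRT was 7.01, 7.19 and 7.01 in C mice and 7.21, 7.03 and 6.80 in T mice. The median difference between the tissues over the 76 genes was -0.13, against 0.03 over all genes. HRT had 3 arrays in each group, so smaller differences were less detectable there. For no single gene of the 76 was the tumour difference shown to differ between EDL and HRT, and SOL was not tested against HRT.

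Tissues of C mice differed in the set before any tumour. Rpl3 rose from EDL over SOL to HRT, while Rpl3l fell in the same order. SOL minus EDL was 0.48 ± 0.0672 for Rpl3 (adjusted p = 1.30e-05) and -0.32 ± 0.0426 for Rpl3l (adjusted p = 7.37e-06, limma), which did not pass when all 58 arrays were fitted at once. HRT minus EDL was 1.35 ± 0.0831 for Rpl3 (adjusted p = 1.69e-11) and -0.83 ± 0.0526 for Rpl3l (adjusted p = 2.62e-11, limma). HRT minus SOL was 0.87 and -0.52, and both passed. No array of one tissue overlapped with another for either gene, so each neighbour in the order differed beyond its spread.

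In all, 3 genes were higher and 5 lower in SOL than in EDL of C mice, against 8.87% and 7.57% of all genes. The others were Rps13 (0.30) and Rps7 (0.22), which were higher, and Rps27l (-0.53), Rplp2 (-0.39), Rpl38 (-0.33) and Rpl10 (-0.17), which were lower. The call of Rpl10 was lost in 3 of 6 alternatives, the mouse as a fixed block among them. That of Rplp2 held in 8 of 15 fits that left out 1 array. HRT had 10 genes higher and 8 lower than EDL, against 20.2% and 13.6% of all genes, and 12 higher and 6 lower than SOL, against 16.7% and 10.7%. The share of the 76 genes that was higher was 3.95%, 13.2% and 15.8% in these 3 comparisons, each below that of all genes above the median level (15.7%, 30.9% and 25.1%). Among genes higher in HRT, the largest differences after Rpl3 were those of Rps4l (0.67 ± 0.126 against EDL and 0.61 ± 0.126 against SOL), Rpl9 (0.44 and 0.50) and Rpl38 (0.57 against SOL). Rpl10a was lower in HRT, by -0.48 against EDL and -0.37 against SOL, as was Rpl29, by -0.38 and -0.36.

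**Figure D5:**
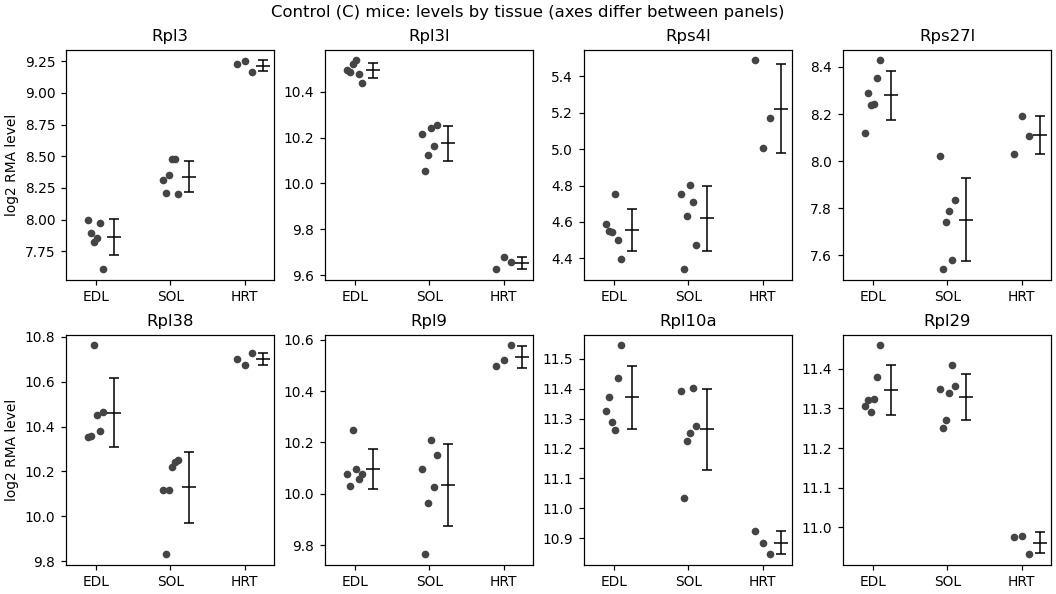
Log2 RMA level (vertical, own axis in each panel) of 8 of the genes in each array of C mice in EDL, SOL and HRT (horizontal), with the mean and 1 SD beside the points. Rpl3 rises and Rpl3l falls from EDL over SOL to HRT without overlap, the HRT arrays of Rps4l and Rpl9 lie above all muscle arrays, and those of Rpl10a and Rpl29 below them.

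Among the 11 tumour bearing mice, Rpl3 and Rpl3l were set against body mass at day 19. Pearson's r was -0.64 for Rpl3 in EDL (p = 0.0300, permutation test, two-sided, adjusted 0.0300 over 4 relations) and -0.81 in SOL (p = 0.00293, adjusted 0.0117, permutation test). For Rpl3l it was 0.69 in EDL (p = 0.0282, adjusted 0.0300, permutation test) and 0.74 in SOL (p = 0.00911, adjusted 0.0182, permutation test). Lighter mice thus had more Rpl3 and less Rpl3l mRNA. Spearman's rho was weaker, at -0.37 for Rpl3 and 0.48 for Rpl3l in EDL, and -0.61 and 0.72 in SOL, with adjusted permutation p values of 0.260, 0.185, 0.103 and 0.0657. With the 2 mice whose body mass was farthest from the median left out, r was 0.12 and 0.16 in EDL and -0.37 and 0.43 in SOL, and none passed. The relations therefore rest on those mice, foremost T + WBV replicate 2. Within the 6 T mice, r for Rpl3 was -0.45 in EDL and -0.79 in SOL, and for Rpl3l 0.63 and 0.54, and none passed (exact permutation test, smallest unadjusted p = 0.0792).

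Other genes of translation are given for comparison. Of 14 measured mRNAs that carry a TOP motif but encode other proteins, 10 rose and 0 fell in EDL, 7 rose and 0 fell in SOL, and 0 passed in HRT (T against C, limma). Of all genes, 10.7% were called higher and 11.6% lower in EDL, against 5.06% and 8.66% for SOL and 2.7% and 3.04% for HRT. The largest rise in EDL was that of Npm1, a nucleolar chaperone of ribosome assembly, at 0.71 ± 0.0984, while Eif3e and Eif3h, subunits of an initiation factor, led in SOL with 0.47 ± 0.117 and 0.44 ± 0.0873. The median of these 14 genes was 0.33 in EDL, 0.30 in SOL and 0.13 in HRT, beside 0.21, 0.33 and 0.11 for the 76 ribosomal protein genes. Fau, which encodes a ribosomal protein fused to a ubiquitin-like part, rose by 0.34 ± 0.0835 in EDL (adjusted p = 0.00227, limma). Fau did not pass in SOL (0.40 ± 0.117, adjusted p = 0.0151) or in HRT (0.20 ± 0.0630, adjusted p = 0.0551, limma).

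Genes that control mTORC1, the kinase complex that promotes translation of TOP mRNAs, were mixed. Of 18 measured, 8 rose and 4 fell in EDL, 5 rose and 3 fell in SOL, and 1 rose in HRT, where 2.7% of all genes rose. In EDL 10.7% of all genes rose and 11.6% fell, and in SOL 5.06% rose and 8.66% fell. The largest rises were in genes that hold mTORC1 or cap-dependent translation back. Ddit4 rose by 3.42 ± 0.402 in EDL, 3.03 ± 0.386 in SOL and 2.30 ± 0.472 in HRT, Sesn1 by 2.50 in EDL and 2.38 in SOL, and Eif4ebp1, a repressor of cap-dependent translation, by 2.31 and 1.60. Mtor rose by 0.65 in EDL and 0.49 in SOL, whereas Mlst8, another subunit, fell by 0.60 and 0.54. Larp1, which binds TOP motifs, rose by 0.44 ± 0.110 in EDL.

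Markers of other cells moved with the tumour too. Of 5 measured neutrophil markers, 4 rose in EDL and all 5 in SOL and HRT. Their mean log2 level was 3.23 to 3.65 in EDL of C mice and 3.77 to 5.09 in T mice, 3.33 to 3.74 and 4.31 to 5.47 in SOL, and 3.51 to 4.00 and 5.30 to 6.20 in HRT. Of 8 macrophage markers, 3 rose in EDL (5.46 to 6.04 in C and 5.79 to 6.70 in T), 0 in SOL (6.04 to 6.56 and 6.09 to 7.02) and 5 in HRT (7.28 to 7.83 and 8.31 to 8.52). Of 5 fibroblast markers, 2 fell in EDL and 3 in SOL, foremost Col1a1 and Col3a1, and 2 rose in HRT. Of 4 fast fibre markers, 2 fell in EDL and 1 in SOL. None of the 5 lymphocyte markers passed in any tissue (limma). Over all genes 10.7%, 5.06% and 2.7% rose and 11.6%, 8.66% and 3.04% fell in EDL, SOL and HRT. The median difference of the neutrophil markers was 1.13, 1.64 and 1.91 in EDL, SOL and HRT, and that of the macrophage markers 0.56, 0.26 and 0.90. Their part in the rise of the ribosomal protein genes was not tested.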

How the data were processed

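The authors deposited log2 intensity values from RMA, which corrects background, quantile-normalizes arrays and summarizes probe sets. The sources used here name no version and do not say whether tissues were normalized together. Probe sets carried the array's own identifiers, although the study describes a custom gene definition. For each symbol, the mean over its single-symbol probe sets was taken, which left 18820 genes. Probe sets with several symbols (1881) or none (12457) were left out of the counts. Of the members, 20 had 1 probe set and 56 had more, up to 41 for Rpl21. Pseudogene copies across the genome can cross-hybridise.

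limma 3.58.1 in R 4.3.3 was fitted per tissue to the 4 groups with an intensity trend in the prior variance, and p-values were adjusted by Benjamini-Hochberg over all genes at 0.01. Comparisons between tissues used the mouse as a random block. Permutation tests used 100000 resamples (numpy 2.4.6, with ranks from scipy 1.17.1), or all orders below 10 mice. The code was tested on simulated data. Alternatives were the intensity-based moderated statistic, 1 common prior variance, other sets of arrays, a second quantile normalization, the genes above the median, 1 probe set per symbol, every probe set, a replicate block and leaving out each array. After seeing the data, a threshold of 0.05, a covariate for arrays whose description carries a suffix (6 arrays) and the canonical genes alone were added. Named members are the largest changes past the threshold in each comparison and the smallest p for training, with paralogue pairs, the stalk, Rpl5, Rpl11, Rps6 and Rpsa always named. Other members given by name, such as Rpl35a, were chosen after their values were seen. The members and lists were chosen with earlier results of these data known.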

Additional observations from a re-analysis of the deposited data

Results flagged for a closer look

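The members given array by array and the mean of the canonical genes were searched for an array that stands apart from its group of 5 or 6, by the gap to its nearest neighbour over the range of the group. Of 88 such searches, 8 found one. A single search flags an array by chance in about 1 of 20 cases. The searches share arrays and genes, so their total cannot be set against that rate.

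Of these, 5 concern SOL C + WBV replicate 2, which lay below the rest of its group. The mean of the canonical genes was -0.300 there, against 0.00528 to 0.0577 in the other 5 arrays. Rps28 read 8.51 (others 8.89 to 9.08), Rps9 read 9.12 (others 9.59 to 9.74), Rps4x read 8.70 (others 9.18 to 9.36) and Rpl39 read 8.55 (others 8.91 to 9.12).

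In EDL, the same mouse, C + WBV replicate 2, had the lowest Rps9 level of its group, 9.37 (others 9.44 to 9.47).

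The other 2 concern EDL T + WBV replicate 2, the tumour bearing mouse with a body mass of 100.9%. Rpl3 read 8.16 there (others 8.69 to 8.86) and Rps27 read 10.21 (others 10.59 to 10.68).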

How the results depend on the processing

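Over all alternatives computed for single genes, 0 of 2790 changed direction, 210 lost a call and 15 gained one. Of 91 called differences, 58 stayed past the threshold in every alternative and with each array left out. Only 11 of the differences examined had not passed to begin with, and the same arrays were refitted. A change of direction was therefore unlikely from the start, and its absence is no test of the results. For T against C the counts of genes changed as reported were 37, 37 and 0 (EDL, SOL, HRT), they were 28, 4 and 0 for T + WBV against C + WBV, and 21, 6 and 0 for T + WBV against C. With each array left out they were 33 to 39, 23 to 45 and 0 to 7 for T against C, 13 to 31, 0 to 11 and 0 to 3 for T + WBV against C + WBV, and 9 to 30, 0 to 12 and 0 to 3 for T + WBV against C. In EDL, T + WBV against C + WBV gave 13 without T + WBV replicate 1 and 17 or 18 without T + WBV replicate 3, 4 or 5 or C + WBV replicate 2. T + WBV against C gave 9 to 13 without T + WBV replicate 1, 3, 4 or 5 or C replicate 1, 3 or 4, and its highest count came without T + WBV replicate 2. In SOL, T + WBV against C gave 12 without T + WBV replicate 2, 11 without C + WBV replicate 2, and 0 to 3 without T + WBV replicate 3, 4 or 5 or C replicate 2, 3 or 4, while for T + WBV against C + WBV 16 of the 23 arrays moved the count of 4. In HRT the highest counts came without T + WBV replicate 2 in all 3 comparisons. The interaction and both comparisons of trained with untrained mice stayed at 0 under every alternative run, and 0 to 0 when arrays were left out.

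With each probe set as its own feature, the counts of ribosomal protein probe sets changed were 226, 134 and 118 in EDL for T against C, T + WBV against C + WBV and T + WBV against C, then 202, 30 and 33 in SOL, and 6 in HRT for T against C. With only the groups compared, T + WBV against C + WBV gave 17 in EDL and 0 in SOL, T + WBV against C gave 10 in EDL, and T against C gave 3 in HRT. Fitting all 58 arrays at once gave 56, 31 and 26 in SOL for the 3 comparisons. Among genes above the median level, both T + WBV comparisons gave 10 in SOL, T against C gave 1 in HRT, and the difference of the tumour effect in SOL against EDL gave 1. For T + WBV against C + WBV in SOL, 1 common prior variance gave 2 and the suffix covariate gave 1. The threshold of 0.05 gave 39 for T + WBV against C in EDL, 27 and 24 in SOL for T + WBV against C + WBV and against C, and 7 and 1 in HRT for T against C and T + WBV against C. For T against C in HRT, a second quantile normalization gave 3 and the probe set with the highest level gave 2. Shares of all genes or probe sets called under these settings are not given, so the counts are not set against a background. The causes were not tested, except that fewer arrays or more features enter some of these fits.

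In C mice 8, 18 and 18 genes differed for SOL against EDL, HRT against EDL and HRT against SOL, 6 to 8, 13 to 26 and 11 to 21 with each array left out. With the mouse as a fixed block HRT against SOL gave 9, among the mice with both tissues. HRT against SOL gave 11 without HRT C replicate 3 and 21 without SOL C replicate 2. The difference of the tumour effect gave 0 to 1 for SOL against EDL and 0 to 0 for HRT against EDL.

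For body mass, r within T mice was -0.45 and -0.79 for Rpl3 in EDL and SOL and 0.63 and 0.54 for Rpl3l. Without the 2 mice farthest from the median it turned to 0.12 for Rpl3 in EDL and was -0.37, 0.16 and 0.43 in the others. Leaving out each mouse gave -0.75 to -0.31 and -0.86 to -0.69 for Rpl3, and 0.50 to 0.78 and 0.60 to 0.84 for Rpl3l, nearest to 0 without T + WBV replicate 2.

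Arrays of different groups with the same replicate number come from different mice and were not taken as pairs. Their deviations had correlations from -0.42 to 0.40. The highest was in SOL for C + WBV against C, where 3 of 6 were above 0.1 and 4 were best with their own number. A replicate block gave 35, 41 and 0 (EDL, SOL, HRT) for T against C, 20, 3 and 0 for T + WBV against C + WBV, 16, 4 and 0 for T + WBV against C, and 0 for the training comparisons.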
